A study of Mus musculus with 6 samples.

Results

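Collagen genes were followed in messenger RNA from lumbar dorsal root ganglia, which hold the cell bodies of sensory neurons, of mice that had eaten freely or had fasted intermittently. The 44 members are all genes in the deposited table, of 54242 gene symbols, whose symbol has the form of a collagen chain of any kind (Col, a number, a, a number). No measured value entered this rule, but the members were chosen with earlier results of these data known. The form leaves out Col4a3bp, a lipid transfer protein gene that only shares the prefix. By structure, 11 were grouped as fibrillar, 6 as basement membrane and 27 as other collagens. All animals were male C57bl/6 mice of 8-10 weeks. The fed group (3 libraries) ate ad libitum, and the fasted group (3 libraries) kept an intermittent fasting diet for 10 days; the labels say that the animals were killed after 24 hours, without saying after what. Ganglia of segments L4-6 were taken apart with papain, Collagenase Type II at 2.5 mg/ml and Dispase II at 1 mg/ml, and the cells were put through a 15% BSA gradient to enrich neurons. Collagenase II is an enzyme that cuts collagen protein, while the values below are of RNA. The labels leave unsaid if a replicate stands for 1 animal or several, so the p-values speak only for the variation among libraries, which can be technical in origin.

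Collagens are proteins whose chains wind around each other in threes as a triple helix. The helix needs glycine, the smallest residue, at the first of every 3 positions in a chain. Fibrillar collagens form the long cross-striated fibres of connective tissue. Collagen IV forms the sheet-like network of basement membranes, which in a ganglion lie around blood vessels and around the glia that wrap neurons and axons. Other collagens sit on fibrils, link them to basement membranes, form beaded filaments or span the cell membrane. In peripheral nerve and ganglia, fibroblasts, Schwann cells, pericytes and endothelial cells are the known sources of most of them, and neurons are enclosed by that matrix more than they make it.

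The glycine repeat could be read from the coding sequences of the GENCODE M21 reference (GRCm38), and it set the fibrillar genes apart from the others. For each member the longest coding sequence was taken, among those that open with ATG and hold whole codons. It was searched for a glycine codon (GGN) at the first of every 3 codons, over at least 5 triplets in a row. The 11 fibrillar genes carried 1 very long repeat each, from 216 triplets in Col24a1 to 344 in Col3a1 (median 338), and between 2 and 3 repeats in all. The 6 basement membrane genes had the repeat broken into 22 to 27 pieces, the longest of 39 to 66 triplets. Among the other collagens the longest repeat ran from 23 triplets in Col26a1 to 113 in Col22a1, Col9a1, Col9a2 and Col9a3. The following stretches are shown because they make this difference visible, with every in-frame GGN codon in capitals. For Col1a1 (chromosome 11, 94936224 to 94953042, plus strand) and Col1a2 (chromosome 6, 4504814 to 4541544, plus strand) they are the first 24 codons of the longest repeat, at bases 502 to 573 and 289 to 360 of the coding sequence. For Col4a1 (chromosome 8, 11198423 to 11312826, minus strand) and Col4a2 (chromosome 8, 11312805 to 11449287, plus strand) they are the last 12 codons of the first repeat and the 12 codons after it, at bases 451 to 522 and 478 to 549.
Col1a1: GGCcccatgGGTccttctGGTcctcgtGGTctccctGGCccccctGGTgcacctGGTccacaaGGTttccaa
Col1a2: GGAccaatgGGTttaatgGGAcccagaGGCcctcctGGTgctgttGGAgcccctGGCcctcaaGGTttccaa
Col4a1: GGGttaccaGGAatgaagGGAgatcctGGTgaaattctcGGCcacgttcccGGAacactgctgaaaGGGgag
Col4a2: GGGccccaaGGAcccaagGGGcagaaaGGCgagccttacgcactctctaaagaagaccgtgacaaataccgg
In the type I chains a capital triplet opens each group of 9 bases without a gap, while in both type IV chains the rhythm is lost after the twelfth codon.

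**Figure D1:**
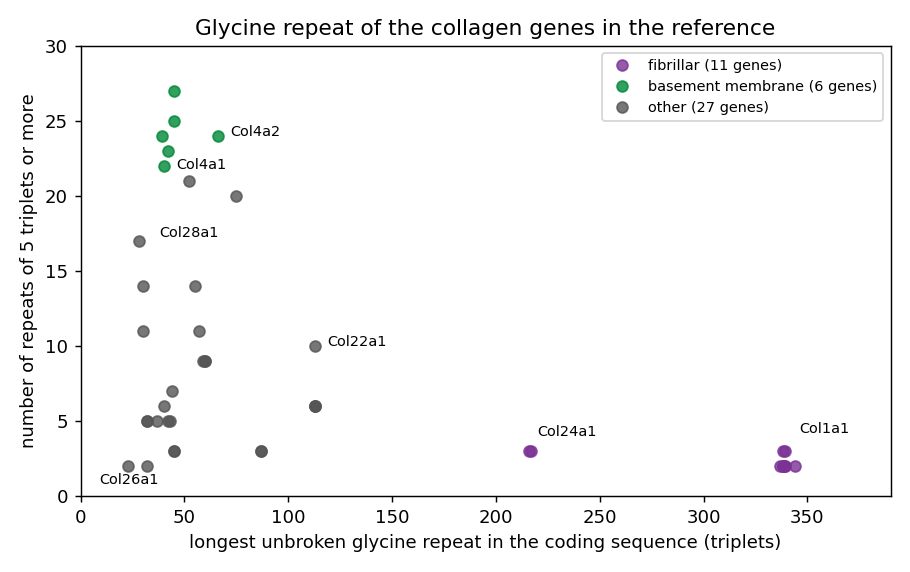
Longest glycine repeat in triplets (x axis) against the number of repeats of at least 5 triplets (y axis) in the longest reference coding sequence of each of the 44 collagen genes, coloured by class. The fibrillar genes lie at 216 to 344 triplets with 2 or 3 repeats, and the basement membrane genes at 39 to 66 triplets with 22 to 27 repeats.

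Levels are given as TPM, a transcript's share of all transcripts scaled to a library sum of 1000000, the authors' per-transcript values summed over the transcripts of a gene, which already divide by length and so allow genes to be compared. TPM carry no sequencing depth, so no counting error can be given for any value. Of the 44 collagen genes, 31 reached 1 TPM on average across libraries and entered the test (the lowest was Col19a1 with a mean of 1.04 TPM), and 13 lay below, from 0.0473 TPM for Col4a6 to 0.866 TPM for Col2a1. The collagen set was skewed, and the 3 genes at the top, Col1a2, Col3a1 and Col1a1, held 45.0% of all collagen TPM, and the first 10 held 77.0%. Together the collagens summed to 626 ± 25.3 TPM with free feeding and 610.4 ± 29.5 TPM with fasting (SD, n = 3 each). Fibrillar genes made up 55.3% of the sum, basement membrane genes 11.6% and the others 33.1%.

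The libraries were checked against the tissue label. All 16 neuronal markers were found, with summed levels of 23961 to 26188 TPM with free feeding and 25288 to 26474 TPM with fasting. Fed replicate 2 held far more skeletal muscle RNA than the rest: the 16 muscle genes summed to 4805 TPM there and to 285 to 697 TPM in the other 5 libraries. Haemoglobin and other red cell genes (7) summed to 1285 to 1565 TPM with free feeding and 1717 to 3283 TPM with fasting, highest in fasted replicate 3. Of all 15097 genes tested, 62.5% were higher in fasted libraries on the TPM scale, with a median log2 fold change of 0.03.

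The comparison the design offers is fasted against fed, and in it no collagen gene stood clear of the replicate spread after adjustment over all genes. With limma on log2(TPM + 1), 0 of 31 tested collagens passed an adjusted p of 0.05, against 0.00662% of all tested genes; the smallest adjusted p was 0.45, for Col5a3. Without adjustment, 3 collagens were lower with p under 0.05 (Col5a3, Col4a1 and Col8a1; 9.68% of 31, against 3.22% of all tested genes) and 1 was higher (Col25a1; 3.23%, against 6.72%). Values of the diets did not overlap for 4 collagens that were lower in fasted libraries (12.9%, against 5.07% of all genes) and for 1 that was higher (3.23%, against 12.7%). The direction of the 31 was 20 lower and 11 higher, with a median log2 fold change of -0.06, while 37.5% of all genes were lower on the TPM scale. With median-of-ratios scaling of the libraries, 49.1% of all genes were lower, the collagens again split 20 lower and 11 higher, and their median was -0.09. By class the medians were -0.04 for 10 tested fibrillar genes (7 lower, 3 higher), -0.14 for 3 basement membrane genes and -0.07 for 18 others (11 lower, 7 higher). The fold changes ran from -0.27 for Col8a1 to 0.25 for Col25a1 on the log2 scale. In RNA from mixed cells, fewer cells of a type and less RNA per cell cannot be told apart.

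**Figure D2:**
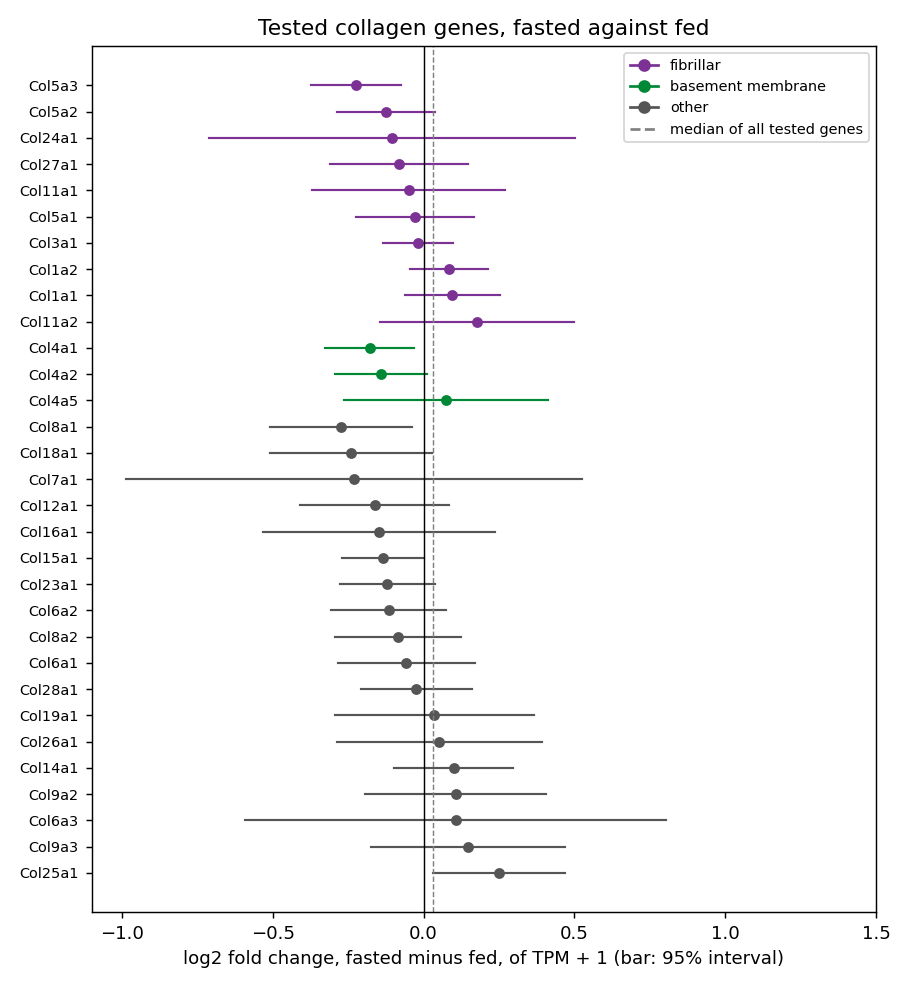
Log2 fold change of TPM + 1, fasted minus fed (x axis), with its 95% interval for each of the 31 tested collagen genes (y axis), ordered within class; the dashed line is the median of all tested genes at 0.03. The intervals of Col5a3, Col4a1 and Col8a1 lie below 0 and that of Col25a1 above it, before adjustment for 15097 tests.

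Among fibrillar collagens, both type I genes were higher on average with fasting, the type III gene was level and the type V genes were lower, and none passed the adjusted test. Col1a2, which codes for the alpha2 chain of type I collagen, the main fibre of connective tissue, was the most abundant collagen, at 124.4, 131.5 and 130.3 TPM with free feeding and 146.9, 135.1 and 128.0 TPM with fasting. Fasted replicates 1 and 2 were above all fed libraries and fasted replicate 3 was among them, and the log2 fold change was 0.08 (95% interval -0.05 to 0.21; limma, adjusted p = 0.58). Col1a1, the partner alpha1 chain, was at 60.4, 59.9 and 57.8 TPM with free feeding and 69.0, 64.6 and 57.3 TPM with fasting. Its pattern was the same, with fasted replicate 3 the lowest of the 6, and its log2 fold change was 0.09 (-0.06 to 0.25; limma, adjusted p = 0.61). Without fasted replicate 1 the fold changes were 0.036 for Col1a1 and 0.031 for Col1a2, and without fasted replicate 3 they were 0.17 and 0.13. Col3a1, which forms fibres together with type I in extensible tissue, was at 87.2, 84.4 and 82.7 TPM versus 84.0, 88.5 and 78.8 TPM. These overlapped almost fully, with an interval of -0.14 to 0.10.

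Type V collagen is a minor chain set that seeds type I fibrils and limits their width. In fasted libraries 2 of its 3 genes were lower without overlap, against 5.07% of all tested genes. Col5a3 (chromosome 9, 20770050 to 20815067), whose chain is known from peripheral nerve, where Schwann cells make it, had the smallest p of all collagens. It was at 24.6, 28.2 and 26.1 TPM with free feeding and 23.0, 22.9 and 21.1 TPM with fasting. Every fasted library was below every fed one, with means of 26.3 ± 1.81 and 22.4 ± 1.05 TPM (SD, n = 3 each) and a log2 fold change of -0.22 ± 0.06 (± standard error; limma, adjusted p = 0.45). The lowest and highest values of this fold change with 1 library left out were -0.27 and -0.17. Col5a2 was at 12.4, 13.9 and 11.9 TPM versus 11.5, 11.8 and 11.4 TPM, also without overlap, but fed replicate 3 (11.90 TPM) and fasted replicate 2 (11.85 TPM) were almost level. Col5a1 was at 8.49, 8.47 and 10.2 TPM versus 8.78, 8.91 and 8.84 TPM, within the spread of the fed libraries.

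The remaining fibrillar genes were low and overlapped between the diets: Col11a1 (5.87 to 8.74 TPM over the 6 libraries), Col24a1 (3.60 to 8.06), Col27a1 (3.45 to 4.37) and Col11a2 (0.91 to 1.48). Col2a1, the fibrillar collagen of cartilage, was below the limit for testing. As a sum the 11 fibrillar genes came to 337, 346 and 336 TPM with free feeding and 362, 349 and 322 TPM with fasting. The fasted libraries bracketed the fed ones, and the log2 ratio of the means was 0.02, which became -0.0130 when TPM were rescaled without mitochondrial genes and -0.017 without fasted replicate 1. Fibroblast markers, a list of 16 genes, were beside this at 2032 to 2094 TPM with free feeding and 1834 to 1949 TPM with fasting, with 0 of 16 at 0. Of them 9 were lower and 7 higher, with a median of -0.01. Without overlap, 4 were lower (Cldn1 -0.36, Ly6a -0.51, Apod -0.18 and Slc6a13 -0.27 on the log2 scale) and 1 was higher (Lum, 0.21), against 5.07% and 12.7% of all tested genes. The fibroblast receptor gene Pdgfra (4.69 ± 0.20 versus 4.61 ± 0.35 TPM) and the fibril-binding Dcn (435.0 ± 37.6 versus 438.8 ± 22.3 TPM) overlapped. Their part in the fibrillar values was not tested.

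Of the basement membrane collagens only the Col4a1 and Col4a2 pair was abundant, and both genes were lower in fasted libraries. Col4a1 was at 42.4, 49.0 and 48.1 TPM with free feeding and 41.2, 39.3 and 42.1 TPM with fasting. The groups did not overlap, although fed replicate 1 (42.36 TPM) was close to fasted replicate 3 (42.07 TPM), and the log2 fold change was -0.18 ± 0.06 (± standard error; limma, adjusted p = 0.48). Col4a2 was at 24.5, 28.9 and 27.8 TPM versus 24.3, 24.5 and 24.3 TPM. Fed replicate 1 lay within the fasted range here, and the 3 fasted libraries were nearly the same, at 24.4 ± 0.11 TPM versus 27.0 ± 2.31 TPM (SD, n = 3 each; log2 fold change -0.14, limma, adjusted p = 0.52). Without fed replicate 1 the fold changes were -0.24 and -0.21, and without fed replicate 2 they were -0.14 and -0.09.

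The 2 genes lie head to head on chromosome 8, transcribed in opposite directions from starts 21 bases apart, so that their first exons overlap by 22 bases. This arrangement is known as a shared promoter, and their products join in 1 helix with a pair of alpha1 chains for each alpha2 chain. The Col4a1 to Col4a2 ratio of TPM was steady, at 1.73, 1.69 and 1.73 in fed and 1.70, 1.61 and 1.73 in fasted libraries (exact permutation test, p = 0.5). Type I collagen, whose helix also has a pair of alpha1 chains for each alpha2 chain but whose genes lie on separate chromosomes, had the reverse order in RNA. The Col1a1 to Col1a2 ratio was 0.49, 0.46 and 0.44 in fed and 0.47, 0.48 and 0.45 in fasted libraries (exact permutation test, p = 0.9). The alpha1 RNA thus exceeded the alpha2 RNA for type IV and was below it for type I, in all 6 libraries. Of 5 such ratios tested, with 0.1 the smallest p that 3 against 3 libraries allow, the smallest p was 0.2, for Col4a1 plus Col4a2 over Col1a1, Col1a2 and Col3a1 (0.27 ± 0.02 in fed and 0.23 ± 0.02 in fasted libraries, SD, n = 3 each; Benjamini-Hochberg adjusted p = 0.9, exact permutation test). That ratio was 0.25, 0.28 and 0.28 against 0.22, 0.22 and 0.25, and overlapped between fed replicate 1 and fasted replicate 3.

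The other type IV genes were scarce. Col4a5 was at 0.92, 1.24 and 0.95 TPM with free feeding and 1.06, 1.01 and 1.36 TPM with fasting, with full overlap. Col4a3 (0.31 to 0.46 TPM), Col4a4 (0.52 to 0.74) and Col4a6 (0.03 to 0.06), which with Col4a5 build the networks of kidney filters and of smooth muscle, were below the limit. Their pairs are also head to head: Col4a3 and Col4a4 lie 71 bases apart on chromosome 1, and Col4a5 and Col4a6 lie 1308 bases apart on chromosome X.

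Blood vessel markers lay on the same side as the type IV genes. Fasting went with lower values for 15 of 16 endothelial markers, beside 37.5% of all tested genes, with a median of -0.24. Without overlap 7 were lower and 0 higher, against 5.07% and 12.7% of all tested genes. By limma 8 were lower with an unadjusted p under 0.05, against 3.22% of all tested genes. The endothelial markers summed to 283 to 340 TPM with free feeding and 242 to 266 TPM with fasting. None was at 0; the junction gene Pecam1 was at 12.7, 15.4 and 12.1 TPM versus 8.79, 10.5 and 11.2 TPM, without overlap. Fed replicate 2, with its muscle RNA, was highest for the endothelial sum, for Col4a1 and for Col4a2. Of 12 pericyte and smooth muscle markers 10 were lower (median -0.08; 193 to 227 TPM versus 157 to 205 TPM), and of 15 Schwann cell markers 5 were lower (median 0.08; 8867 to 9768 TPM versus 9220 to 10146 TPM). The part of these cells in the type IV values was not tested. The basement membrane sum was 68.7, 80.4 and 77.9 TPM with free feeding and 67.8, 66.1 and 68.7 TPM with fasting, a log2 ratio of -0.16. It was between -0.23 and -0.12 with 1 library left out. The 27 other collagens summed to 198, 227 and 207 TPM with free feeding and 205, 203 and 187 TPM with fasting, overlapping, with fed replicate 2 highest.

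**Figure D3:**
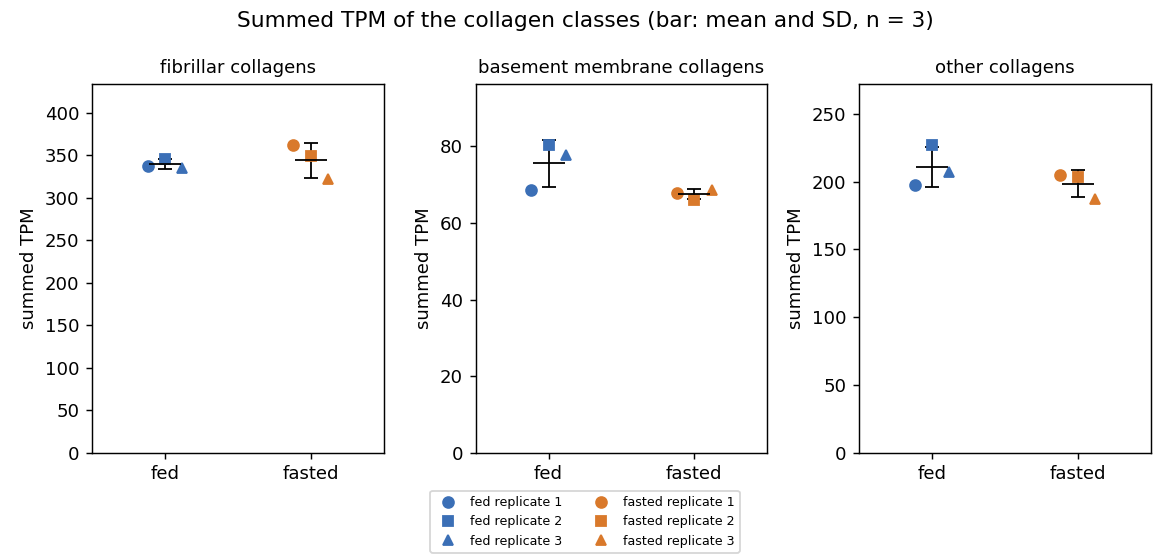
Summed TPM (y axis, from 0) of the 11 fibrillar, 6 basement membrane and 27 other collagen genes in each library, with the mean and SD of each diet (n = 3). Fasted libraries bracket the fed ones for fibrillar genes, and lie at 66.1 to 68.7 TPM for basement membrane genes, level with fed replicate 1 and below fed replicates 2 and 3.

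Laminins and the other proteins of basement membranes were looked at beside collagen IV. Of 12 tested genes on this list 10 were lower and 2 higher, with a median of -0.08; 0 passed over all genes, and 1 (Lama4, lower) had an unadjusted p under 0.05 by limma, against 3.22% of all tested genes. Lama4, the laminin alpha chain of vessel walls and peripheral nerve, was at 14.8, 18.5 and 17.4 TPM with free feeding and 12.9, 13.8 and 14.0 TPM with fasting, without overlap (log2 fold change -0.29, limma, adjusted p = 0.46). Lama5 (2.48 ± 0.86 versus 1.68 ± 0.27 TPM) and Lamc1 (21.4 ± 2.04 versus 19.4 ± 0.10 TPM) had the next smallest p-values and overlapped (SD, n = 3 each). The list as a sum was at 202 to 241 TPM with free feeding and 210 to 220 TPM with fasting.

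Other collagens at or above 10 TPM were mostly close between the diets. Col28a1, a collagen with von Willebrand factor domains known from the peripheral nervous system, where it lies at the surface of glial cells, was the highest of them. It was at 37.6, 46.1 and 46.0 TPM with free feeding and 42.9, 42.0 and 42.0 TPM with fasting, and the fed libraries lay on both sides of the fasted ones (log2 fold change -0.02, limma, adjusted p = 0.92). By mean level it stood just below Col4a1 among the 44 genes.

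The multiplexins Col15a1 and Col18a1, proteoglycans of the basement membrane zone that release endostatin-like fragments, were both lower on average. Col15a1 was at 26.1, 29.5 and 27.7 TPM with free feeding and 25.0, 26.2 and 24.4 TPM with fasting. Only fed replicate 1 and fasted replicate 2 were out of order (log2 fold change -0.13, limma, adjusted p = 0.51). Col18a1 was at 11.1, 13.6 and 10.2 TPM versus 9.08, 10.8 and 9.06 TPM, with fed replicate 3 below fasted replicate 2 (-0.24, limma, adjusted p = 0.52); fed replicate 2 was the highest, and without it the value was -0.13.

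Type VI collagen forms beaded filaments around cells, and its most abundant genes here were Col6a1 and Col6a2, neighbours on chromosome 10. Col6a1 was at 16.0, 16.2 and 14.9 TPM with free feeding and 14.9, 17.4 and 13.1 TPM with fasting. Col6a2 was at 17.1, 17.8 and 16.3 TPM versus 17.2, 16.1 and 13.9 TPM. Both overlapped and both were lowest in fasted replicate 3. Col6a3 was tested too, at 4.02 to 10.1 TPM over the 6 libraries with overlap, and its transcripts are given below. Col6a4, Col6a5 and Col6a6 were below the limit for testing.

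The fibril-associated collagens had 6 tested members, 4 higher and 2 lower. Col16a1, which lies at fibrils and at cell surfaces, was at 17.4, 21.9 and 13.9 TPM with free feeding and 17.8, 16.2 and 13.3 TPM with fasting, with a wide spread in both diets (log2 fold change -0.15, limma, adjusted p = 0.74). Col14a1 (9.01 to 11.3 TPM), Col12a1 (7.84 to 11.3), Col9a2 (5.96 to 8.56), Col9a3 (1.11 to 1.76) and Col19a1 (0.94 to 1.31) overlapped too. Col9a1, the remaining chain of type IX collagen, was at 0.02 to 0.07 TPM, far below its partners Col9a2 and Col9a3.

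Of the network and transmembrane collagens, Col8a1 and Col25a1 held the lowest and the highest fold change of all tested collagens. Col8a1, a short-chain network collagen of vessel walls and other endothelia, was at 7.30, 8.28 and 6.43 TPM with free feeding and 6.14, 5.43 and 6.08 TPM with fasting. The groups did not overlap, and the log2 fold change was -0.27 ± 0.10 (± standard error; limma, adjusted p = 0.49). Its partner Col8a2 was at 3.90, 4.14 and 3.83 TPM versus 3.86, 3.79 and 3.38 TPM, with fasted replicate 1 between the fed libraries.

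Col25a1 codes for a transmembrane collagen made by neurons and known for its part in motor innervation of muscle. It was at 2.84, 2.65 and 2.92 TPM with free feeding and 3.27, 3.66 and 3.65 TPM with fasting, every fasted library above every fed one (log2 fold change 0.25 ± 0.09, standard error, by limma, adjusted p = 0.49). Its unadjusted p was no longer under 0.05 without fed replicate 1, fed replicate 2, fasted replicate 2 or fasted replicate 3. The neuronal list lay on the same side, with 14 of 16 markers higher and a median of 0.07, beside 62.5% of all tested genes higher and a median of 0.03. By limma 0 of these markers had an unadjusted p under 0.05, and the part of neurons in the Col25a1 values was not tested. Col23a1, another transmembrane collagen, was at 17.8, 18.5 and 19.9 TPM versus 17.3, 16.0 and 18.2 TPM, overlapping by fasted replicate 3 (-0.12, limma, adjusted p = 0.54). Col13a1 and Col17a1 were below the limit. Of the 13 collagens below the limit, which were not tested, 3 were lower and 0 higher without overlap, against 3.72% and 2.84% of all 14663 genes with a mean above 0 and under 1 TPM: Col10a1 (0.38 to 0.42 against 0.26 to 0.36 TPM), Col22a1 (0.32 to 0.80 against 0.16 to 0.20 TPM) and Col6a4 (0.16 to 0.35 against 0.04 to 0.15 TPM). They were singled out after their values were seen. The coding transcripts of 8809 bases for Col22a1 (0.11 to 0.32 against 0.09 to 0.20 TPM) and of 7371 bases for Col6a4 (0.01 to 0.08 against 0.01 to 0.05 TPM) overlapped. A Col22a1 model of 659 bases was at 0 to 0.65 TPM with free feeding and at 0 with fasting. A Col6a4 model of 1086 bases, annotated for nonsense-mediated decay, was at 0 to 0.30 against 0 to 0.13 TPM.

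**Figure D4:**
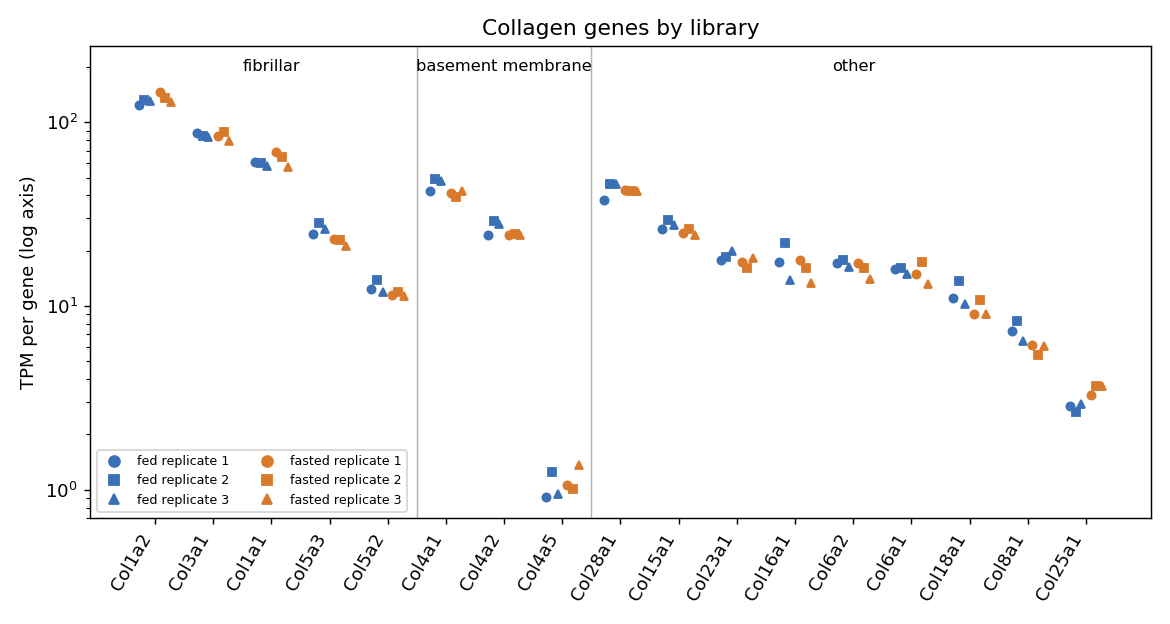
TPM (y axis, log scale) of 17 collagen genes in each of the 6 libraries, grouped by class and ordered by level; blue marks are fed and orange marks fasted, and the marker shape gives the replicate. Values span from 0.92 TPM for Col4a5 to 146.9 TPM for Col1a2, and the 2 diets lie close together for every gene shown.

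The table lists 227 transcripts for the 44 genes. For 10 of the 31 tested genes a single transcript held at least 90% of the TPM, among them Col1a1 (99.6%), Col4a2 (99.9%), Col4a1 (96.5%) and Col5a3 (97.9%). The 3 tested genes whose sums varied more than 2-fold among the 6 libraries, Col7a1, Col6a3 and Col24a1, drew on short transcript models; they were singled out after their values were seen. The Col6a3 sum was 4.02, 9.36 and 7.53 TPM with free feeding and 10.1, 7.14 and 5.14 TPM with fasting. Its coding transcript of 9001 bases was at 3.51, 3.88 and 3.64 TPM versus 3.55, 3.75 and 3.54 TPM, while a retained-intron model of 646 bases was at 0, 4.02 and 2.68 TPM versus 5.72, 2.17 and 0 TPM. The long transcript was therefore nearly level over the 6 libraries, and the short model varied most.

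Col24a1 showed the same arrangement. Its transcript of 7143 bases was at 2.22 to 3.35 TPM over the 6 libraries, and a coding fragment model of 330 bases was at 5.28, 1.09 and 0 TPM with free feeding and 3.05, 0.64 and 1.81 TPM with fasting. The 8.06 TPM of fed replicate 1, highest of the 6, thus came mostly from the fragment. Col7a1, the anchoring fibril collagen of skin, was led by a retained-intron model of 525 bases at 1.39 TPM in fed replicate 1, 0.69 TPM in fasted replicate 2 and 0 elsewhere. Col3a1 had a second model of 737 bases at 20.6 to 27.0 TPM, highest in fasted replicate 3, where the transcript of 5564 bases was lowest (51.8 TPM versus 61.7 to 65.5 TPM in the other 5 libraries). Their sum in that library, 78.8 TPM, was the lowest of the 6.

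Taking only the leading transcript of each tested gene, 5 collagens did not overlap and were lower in fasted libraries (Col4a1, Col5a3, Col8a1, Col15a1 and Col16a1), against 4.91% of all tested genes, and 0 were higher, against 12.7%. Col4a1 was then at 42.2, 48.3 and 45.0 TPM with free feeding and 39.8, 38.6 and 39.0 TPM with fasting, a wider gap than in the sum. Col15a1 was at 18.6, 19.1 and 18.03 TPM versus 16.6, 17.0 and 15.4 TPM. The leading transcript held 65.9% of the Col15a1 sum and 35.0% of the Col16a1 sum, and both sums overlapped between the diets. Col25a1 lost its separation, at 1.68, 1.19 and 1.88 TPM versus 1.93, 1.81 and 1.82 TPM, where only fed replicate 3 overlapped the fasted libraries. Part of its sum is a model annotated for nonsense-mediated decay, at 0.84, 0.82 and 0.85 TPM with free feeding and 0.86, 1.14 and 1.28 TPM with fasting.

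**Figure D5:**
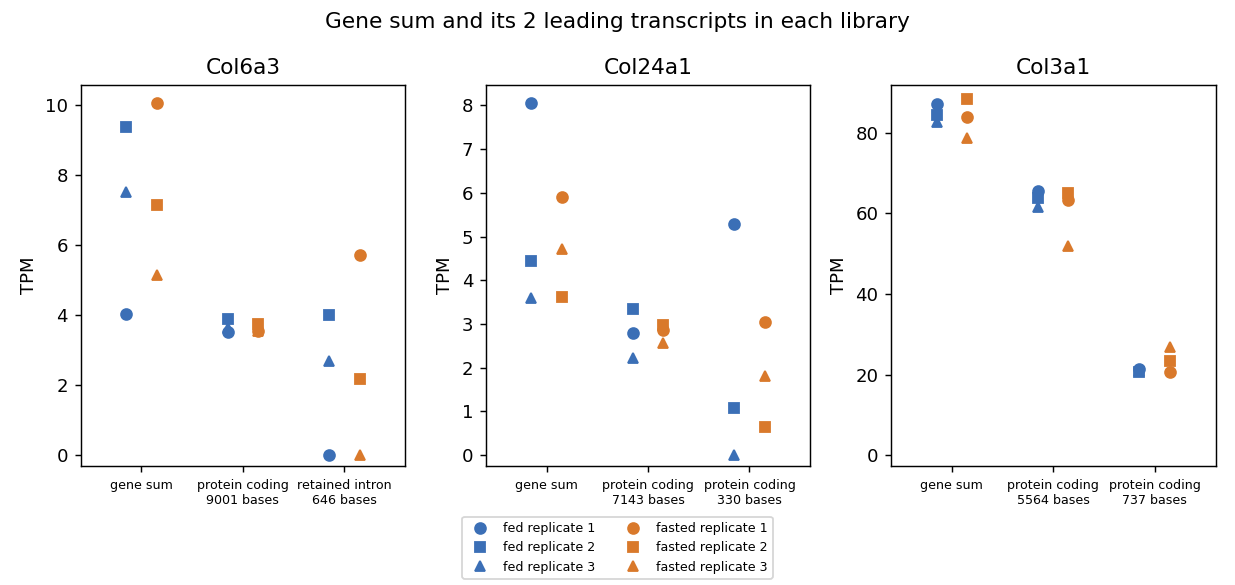
TPM (y axis) of the gene sum and the 2 leading transcript models of Col6a3, Col24a1 and Col3a1 in each library, with the annotated type and length of each model on the x axis. The transcripts of 9001 and 7143 bases stay within 3.51 to 3.88 and 2.22 to 3.35 TPM, while the models of 646 and 330 bases range from 0 to 5.72 and from 0 to 5.28 TPM.

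Genes that make and process collagen were examined as a further set. Of 23 enzymes and chaperones of collagen synthesis in the endoplasmic reticulum, 14 were lower and 9 higher, with a median of -0.03; 0 passed over all genes and 4 of 23, all lower, had an unadjusted p under 0.05 by limma, against 3.22% of all tested genes on the lower side and 6.72% on the higher. Serpinh1, which codes for HSP47, the chaperone that binds folded procollagen, was at 76.9, 83.9 and 70.9 TPM with free feeding and 60.6, 66.7 and 67.3 TPM with fasting, without overlap (log2 fold change -0.25, limma, adjusted p = 0.45). P3h2, a prolyl 3-hydroxylase that acts on type IV chains, was at 5.64, 5.56 and 5.73 TPM versus 3.996, 4.26 and 4.91 TPM (-0.31, limma, adjusted p = 0.45). Plod1, a lysyl hydroxylase, was at 20.8 ± 0.84 versus 18.6 ± 0.32 TPM (SD, n = 3 each), also without overlap. Plod3 (log2 fold change -0.29) was the remaining gene with an unadjusted p under 0.05 by limma, and its values overlapped between the diets. In all 4 genes of this list were lower without overlap, the remaining one being P4ha1, which did not reach that p. Without overlap 3 were higher (Ppib 0.08, Colgalt2 0.13 and Sec23a 0.08 on the log2 scale). The shares of all tested genes were 5.07% lower and 12.7% higher. The list sums overlapped, at 918 to 950.4 TPM with free feeding and 926 to 943 TPM with fasting.

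Outside the cell, procollagen is trimmed and cross-linked, and of 16 tested genes on that list 10 were lower and 6 higher. Lox, the lysyl oxidase that starts collagen cross-links, was at 23.3, 25.0 and 23.6 TPM with free feeding and 18.9, 17.9 and 20.4 TPM with fasting. All fasted libraries were below all fed ones by more than the spread within either diet (log2 fold change -0.32 ± 0.06, standard error, by limma, adjusted p = 0.41). Lum, a small proteoglycan that binds fibrils, was higher without overlap, at 32.5, 31.2 and 31.9 TPM versus 37.3, 36.2 and 37.9 TPM (0.21, limma, adjusted p = 0.41). Adamts3, which trims the amino end of procollagen, was higher as well, at 4.36 ± 0.33 versus 5.17 ± 0.35 TPM (SD, n = 3 each). In all, 1 of the 16 was lower without overlap (Lox) and 2 were higher (Lum and Adamts3), against 5.07% and 12.7% of all tested genes.

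Receptors and breakdown enzymes held no gene past an unadjusted p of 0.05. Of 9 tested collagen receptors 4 were higher and 5 lower; 3 were lower and 0 higher without overlap, against 5.07% and 12.7% of all tested genes. Lair1, an inhibitory collagen receptor of leukocytes, was at 2.57, 2.10 and 1.39 TPM with free feeding and 1.37, 1.39 and 1.22 TPM with fasting. Beside it 14 of 14 macrophage markers were lower (median -0.36, 170 to 203 TPM versus 124 to 144 TPM), against 37.5% of all tested genes. Of these markers 9 were lower and 0 higher without overlap, against the 5.07% and 12.7% above. The part of macrophages in the Lair1 values was not tested. Mrc2, the collagen uptake receptor, was at 4.78 ± 0.42 versus 4.19 ± 0.37 TPM and the discoidin receptor Ddr2 at 6.15 ± 0.42 versus 5.69 ± 0.13 TPM (SD, n = 3 each). Of 12 tested breakdown genes 8 were lower and 4 higher. Without overlap 1 was higher and 0 were lower, against 12.7% and 5.07% of all tested genes. The protease inhibitors Timp3 (132.4 ± 7.57 versus 122.3 ± 3.04 TPM) and Timp2 (661.7 ± 46.8 versus 719.7 ± 6.12 TPM) lay in opposite directions, and the protease gene Ctsk was at 9.88 ± 1.04 versus 8.75 ± 0.94 TPM. In the list for control of matrix by TGF-beta, the growth factor that raises collagen transcription, 10 of 17 were higher and 7 lower. Ltbp4, which holds latent TGF-beta in the matrix, was at 17.4, 16.8 and 16.6 TPM with free feeding and 21.4, 24.8 and 21.6 TPM with fasting (log2 fold change 0.39, limma, adjusted p = 0.41). Without overlap 4 of the 17 were higher, among them Ltbp4 and Ltbp3, and 2 were lower, among them Tgfbr2. The shares of all tested genes were 12.7% and 5.07%. No gene of these lists passed over all genes by limma. At an unadjusted p under 0.05 stood Lox (lower), Lum (higher) and Ltbp4 (higher), against 3.22% of all tested genes on the lower side and 6.72% on the higher.

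Markers of cartilage and bone were included because ganglia are cut out of the spine. Of 6 tested markers 6 were higher, beside 62.5% of all tested genes. The 10 markers summed to 31.7 to 35.7 TPM with free feeding and 36.2 to 41.8 TPM with fasting. The bone gene Ibsp was at 5.40, 5.03 and 5.73 TPM with free feeding and 7.32, 6.35 and 7.73 TPM with fasting, and Bglap, made by osteoblasts, at 0.95, 0.40 and 0.56 TPM versus 3.32, 0.48 and 5.49 TPM. Fasted replicates 1 and 3 were the high ones. Col1a1 and Col1a2, type I chains that osteoblasts also make, were highest in fasted replicate 1, while Col1a1 was lowest in fasted replicate 3; the part of bone cells in their values was not tested. Satellite glial markers (10 genes) were 5 higher and 5 lower, with a median of 0.00. The cartilage markers Acan (0.36 ± 0.13 versus 0.43 ± 0.12 TPM) and Matn1 (0 to 0.019 TPM) were low, and Col2a1 was at 0.62 to 1.149 TPM.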

How the data were processed

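The deposited table holds TPM per transcript for 140992 transcripts, made by the authors; each library sums to 1000000. The tools named per the submitters' processing notes are Salmon 1.6.0, DESeq2 1.34.0, Trim Galore 0.6.6 and FastQC 0.11.9, with builds GRCm38 and mm10; their roles, the annotation release and the strand setting are not given in the sources used here. TPM hold no depth, so no count model was run. Since TPM have a fixed sum, more of some transcripts lowers the rest. From these values TPM were summed per gene symbol, the 15097 genes that averaged 1 TPM or more were kept, and log2(TPM + 1) was fitted with limma 3.58.1 in R 4.3.3 (diet as sole term, eBayes with a mean trend, two-sided, Benjamini-Hochberg over all tested genes, threshold 0.05). With a pseudocount of 1, fold changes of low genes are understated. The fit was tested on simulated data. Positions, transcript types and coding sequences came from GENCODE M21, which held 98.7% of the transcripts. Col4a1 and Col4a2 overlap each other by 22 bases on opposite strands. Exons of Col4a2, Col3a1, Col5a1, Col15a1, Col9a3, Col7a1, Col4a3, Col6a4, Col6a6, Col10a1, Col20a1 and Col22a1 overlap other annotated genes as well. Reads in all these stretches are uncertain.

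The members and lists were chosen with earlier results of these data known. Named by rule were the 3 most abundant fibrillar, 3 basement membrane and 6 other collagens, the 8 with the smallest p, any past the threshold and up to 3 per partner list; other members are given by range, except Col5a1, Col8a2, Col6a3, Col24a1 and Col7a1, given by library after their values were seen. The glycine repeat, planned from reference proteins, was read from codons. No replicate block was used, as no label ties the numbers together. Plots used matplotlib 3.10.9 under Python 3.11.15.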

Additional observations from a re-analysis of the deposited data

How the results depend on the processing

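No collagen gene passed an adjusted p of 0.05 under any of 18 alternatives (a filter at 5 TPM, none at all, pseudocounts of 0.1 and 0.5, 4 rescalings, no trend, replicate block, protein-coding transcripts only, each library left out, and, chosen after seeing the data, the lead transcript only). The count of all genes called was 1; it was 2 with a pseudocount of 0.1 or 0.5, 0 without a filter, 0 with protein-coding transcripts only, and from 1 to 7 with a library left out. The replicate block gave 1 called gene and a collagen median of -0.06. With it 4 collagens were lower at an unadjusted p under 0.05 by limma (12.9%, against 3.74% of all tested genes). Deviations of same-numbered libraries correlated at 0.07 to 0.11, above the -0.12 to 0.04 of other pairs. With 3 libraries per diet these values cannot decide if the numbers pair libraries. The block was left out of the main fit because no label ties the numbers together. The collagen median was -0.06, from -0.10 to -0.02 with a library left out and from -0.11 to -0.03 otherwise. Collagens lower with an unadjusted p under 0.05 by limma were 3 (9.68%, against 3.22% of all tested genes). Without fed replicate 2, the library with the most muscle RNA, only Col5a3 was left (3.23%, against 2.54%). There were 5 without fed replicate 1 (16.7%, against 3.60%), 6 without a filter (13.6%, against 2.69%) and 6 with the lead transcript only (22.2%, against 3.10%). The 6 without a filter included Col22a1 and Col6a4, with means of 0.33 and 0.18 TPM. The 6 with the lead transcript included Col16a1, whose lead transcript held 35.0% of its gene sum. Under median-of-ratios scaling 5 collagens were lower with an unadjusted p under 0.05 by limma (16.1%, against 4.86%). Of all genes 733 were then lower and 567 higher, against 486 and 1015 in the main setting. The cause was not tested. The higher collagen, Col25a1, was no longer at p under 0.05 with the replicate block, no filter, protein-coding transcripts only or the lead transcript only. The same held without fed replicate 1, fed replicate 2, fasted replicate 2 or fasted replicate 3, and Col25a1 was not tested at 5 TPM. Without fasted replicate 3, Col1a1 and Col1a2 were higher with an unadjusted p under 0.05 by limma, against 3.94% of all tested genes. With a library left out, directions turned at values near 0: Col3a1 ran from -0.058 to 0.025 (0.0020 without fed replicate 1, 0.025 without fasted replicate 3), Col16a1 from -0.30 to 0.0094 (without fed replicate 2), Col28a1 from -0.12 to 0.024 (without fed replicate 2; 0.022 without fed replicate 3) and Col6a1 from -0.15 to 0.034 (without fasted replicate 3). The other 13 collagens named by the rule kept their direction in every setting run. Depth is unknown, so the error of genes near 1 TPM cannot be given.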
